A study of Homo sapiens with 16 samples.

Results

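The DNA replication machinery examined here is a set of 44 genes whose products license, unwind and copy chromosomal DNA or supply its nucleotides. The genes were chosen by symbol from the 63187 genes of the deposited count table. Each symbol matched a single row, and all 44 members were among the 19530 genes that passed the filter on low counts. A member had between 605 and 27918 estimated counts in a library, so none was near the lower limit of detection.

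The libraries were made from SK-N-BE(2), a neuroblastoma line whose MYCN gene is amplified, and the comparison of interest was between structural forms of HIF-2α, the oxygen-regulated transcription factor subunit encoded by EPAS1. WT denotes wild-type cells, FL cells transfected with full-length HIF-2α, and NCTAD and cIDR cells transfected with the forms written ΔN-CTAD and Δc-IDR in the study design. There were 4 libraries in each of the 4 groups, 16 in all, and the replicate number 1 to 4 is also given as a batch, so that each batch holds 1 library of every group. All groups grew in 21% oxygen, 5% carbon dioxide and 10% serum. All are models in a single cell line, which the deposited column names call BE2c and the sample labels SK-N-BE(2). The column names also differ for the groups: columns named WT hold the FL libraries and columns named CTRL the WT libraries, and NTAD stands for NCTAD. Groups here follow the sample labels, which give the library name of each column. The deleted residues, the vector, the time after transfection and any mock transfection of WT cells are not given in the sources used here, so transfection and HIF-2α cannot be told apart in a comparison with WT. What a batch shared beyond its number is not given either.

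Before S phase the origin recognition complex, CDC6 and CDT1 load the MCM2-7 helicase onto DNA. CDC45 and the GINS complex turn the loaded helicase into an active one, primase with polymerase alpha starts each strand, and polymerases delta and epsilon extend it while held by the PCNA ring. FEN1 and LIG1 finish the lagging strand, RPA covers single-stranded DNA, and ribonucleotide reductase, TYMS and TK1 provide deoxynucleotides. Many of these genes are known targets of E2F transcription factors and are transcribed most strongly around the passage from G1 into S phase.

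Libraries held 38.6 M to 56.1 M counts, with M for mega. EPAS1 stood at 13.0 to 28.1 CPM (counts per 1 M counts of the library) in the 4 WT libraries and at 1320 to 5852 CPM in the 12 transfected ones, as the labels require. Markers of neuroblastoma were present in every library, with MYCN at 1778 to 2347 TPM (transcripts per 1 M transcripts, corrected for length), PHOX2A at 489 to 590 TPM and CHGA at 1613 to 2715 TPM. The 4 libraries of batch 2 stood apart from the other 12. Their counts were spread over 27145 to 27325 genes with at least 1 count, against 24662 to 26388 elsewhere, and mitochondrial transcripts took 6.76% to 7.38% of counts, within the 2.55% to 10.3% of the others. For this reason the main comparisons between groups have batch as a term or are made within batches, and batch 2 is described on its own. The levels that follow first are taken over all 16 libraries, so their SDs include the difference of batch 2.

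On the TPM scale, which is per transcript length, the members spanned 46.1-fold. PCNA, the sliding clamp, had the highest mean over the 16 libraries at 352.5 TPM, and ORC1, the largest subunit of the origin recognition complex, the lowest at 7.65 TPM; the median member had 46.8 TPM. MCM7 (278 ± 37.4 TPM, SD, n = 16), MCM3 (237 ± 45.3) and RRM2 (208 ± 42.2), the small subunit of ribonucleotide reductase, followed PCNA, and the ranges of these 3 genes over the libraries overlapped. At the low end ORC1 (7.65 ± 1.01 TPM) lay under GINS4 (13.7 ± 2.59), PRIM2 (16.3 ± 1.87) and ORC4 (18.3 ± 3.14). The highest ORC1 value of 8.61 TPM overlapped the lowest GINS4 value of 8.36 TPM. Subunits of 1 complex were not at equal levels: in GINS the mean ran from 13.7 TPM for GINS4 to 42.2 TPM for GINS2, and in polymerase delta from 21.0 TPM for POLD3 to 175 TPM for POLD2.

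**Figure D1:**
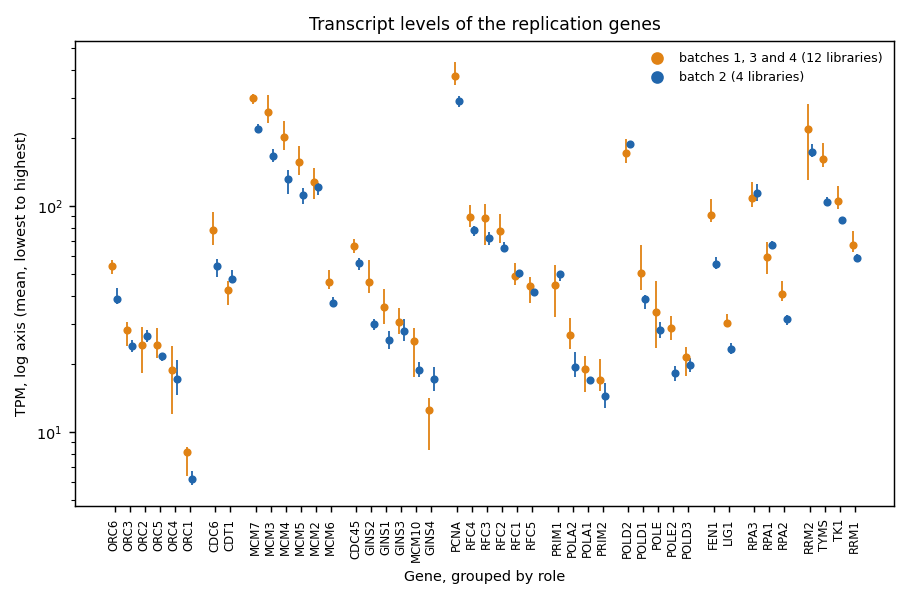
Level of each of the 44 replication genes in TPM on a log axis, grouped by role and ordered by mean within a role; points are means and lines run from the lowest to the highest library, for the 12 libraries of batches 1, 3 and 4 and the 4 libraries of batch 2. The set runs from ORC1 near 7.65 TPM to PCNA near 352.5 TPM, and the batch 2 points lie under the others for most genes.

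The first question was whether any form of HIF-2α changed these genes. No member was called in any of the 6 comparisons between groups (edgeR quasi-likelihood test with batch as a term, adjusted p under 0.05 over all 19530 genes). Calls over all genes were also few: 0.102% of the genes tested for FL against WT, 0.456% for NCTAD against WT, 0.486% for cIDR against WT, 0% for NCTAD against FL, 0.0307% of them in cIDR set against FL and 0.00512% in cIDR set against NCTAD. The comparisons with WT share the 4 WT libraries. At an unadjusted p under 0.05 there were 4, 1, 1, 0, 1 and 0 members in these 6 comparisons, beside 5.11%, 5.96%, 5.45%, 3.69%, 3.68% and 2.15% of all genes. DESeq2 with the same terms also called 0 members in each.

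The sizes were small as well as uncalled. Over the 44 members the median log2 fold change against WT was 0.032 for FL, 0.035 for NCTAD and 0.014 for cIDR, beside 0.011, 0.016 and 0.0079 over all genes. Leaving out 1 library or batch turned the sign of each: the FL median ran from −0.016 (without batch 4) to 0.059, the NCTAD median from −0.0029 (without batch 1) to 0.064 and the cIDR median from −0.015 (without the WT library of batch 4) to 0.036. All 3 were highest without the WT library of batch 2. Single members lay between −0.10 and 0.17 for FL, between −0.041 and 0.14 for NCTAD and between −0.10 and 0.13 for cIDR. The 95% intervals of the members, taken 1 gene at a time, reached no further than −0.25 and 0.33 in FL, −0.19 and 0.29 in NCTAD and −0.23 and 0.26 in cIDR. Between the transfected groups the members lay between −0.21 and 0.11.

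Within batches the sign of the set was mixed. The mean log2 difference from WT over the members was 0.053, −0.057, 0.0084 and 0.094 for FL in batches 1 to 4 (mean 0.024 ± 0.065, SD, n = 4). For NCTAD it was 0.13, −0.067, −0.013 and 0.095 (0.036 ± 0.092), and for cIDR 0.059, −0.065, −0.0069 and 0.074 (0.015 ± 0.064). All 3 forms were thus above WT in batches 1 and 4 and below it in batch 2, and each mean was smaller than its SD. Members that moved the same way in 4 of 4 batches made up 9.09%, 9.09% and 15.9% of the set for FL, NCTAD and cIDR against WT, beside 9.29%, 15.3% and 17.7% of all genes.

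CDT1, which loads the helicase together with CDC6, was the member with the smallest adjusted p for NCTAD and for cIDR against WT. It stood at 71.3, 74.3, 67.4 and 64.5 CPM in WT cells of batches 1 to 4, at 87.1, 74.4, 69.4 and 74.9 CPM in NCTAD cells and at 79.8, 79.3, 72.8 and 72.5 CPM in cIDR cells. Both forms were above WT in 4 of 4 batches, though the groups overlapped. The log2 difference of NCTAD, 0.14 ± 0.054 (SE), did not pass (adjusted p = 0.683), and nor did that of cIDR, 0.13 ± 0.054 (adjusted p = 0.821). TK1, the salvage kinase for thymidine, had the smallest unadjusted p for FL against WT, with a log2 difference of 0.14 ± 0.056 (adjusted p = 0.92) and differences of 0.33, 0.019, 0.055 and 0.17 in batches 1 to 4. POLA1, the catalytic subunit of polymerase alpha, was lower in cIDR than in FL in 4 of 4 batches, by 0.18, 0.096, 0.49 and 0.062 on the log2 scale, and did not pass either (−0.21 ± 0.074, adjusted p = 1).

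**Figure D2:**
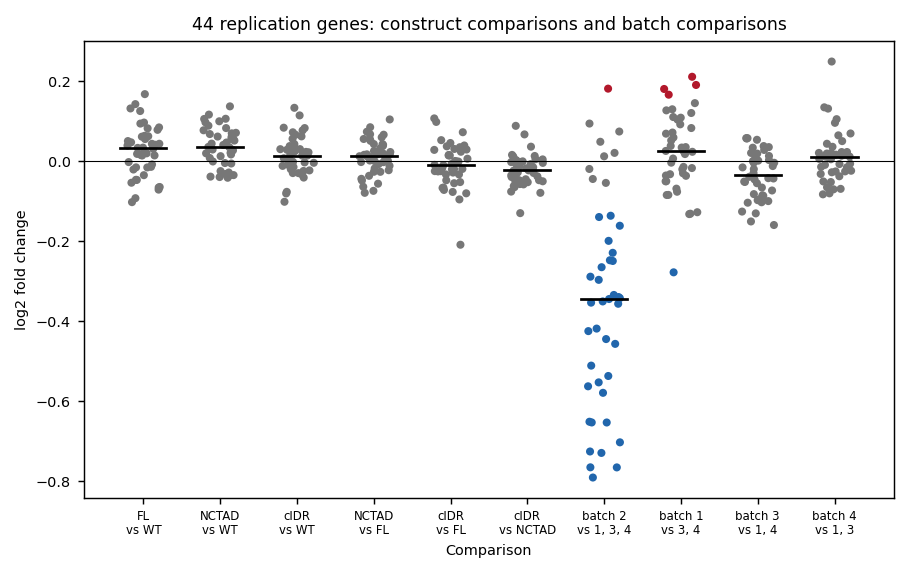
Log2 fold change of the 44 members (points) and their median (bar) in the 6 comparisons between groups, in batch 2 against batches 1, 3 and 4, and in each other batch with batch 2 left out; blue is called lower, red called higher and grey not called. The group comparisons stay within −0.21 and 0.17 with no call, while batch 2 reaches −0.79.

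The second comparison set batch 2 against the mean of batches 1, 3 and 4 in the same model. Batch 2 was singled out because earlier results of these data had shown it to differ. A batch holds 1 library per group and is not itself repeated, so the p-values measure the spread between libraries, not between batches. In batch 2, 35 of the 44 members were lower and 1 was higher, which is 81.8% called, whereas 53.9% of all genes tested were called. By direction, 79.5% of the members were called lower against 26.1% of all genes, and 2.27% were called higher against 27.7%. On TPM values analysed with limma, 27 or 28 members were called lower and 3 or 4 higher, depending on the pseudocount and filter. The median over the members on that scale was −0.26. Shares of all genes called lower or higher on TPM values are not given here, so these member counts have no background. On counts, the median log2 fold change was −0.34 over the members and 0.035 over all genes. In 30 members all 4 batch 2 libraries lay below all 12 others; 14 members overlapped and none lay above. Over all genes, 14.6% lay wholly below and 14.4% wholly above.

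Mean log2 CPM over the 44 members in batch 2 was 6.10 in WT cells, 6.04 in FL cells, 6.03 in NCTAD cells and 6.03 in cIDR cells. In the other 12 libraries it ran from 6.34 through a median of 6.39 to 6.48, so the ranges did not touch. Members took 0.402% to 0.432% of the counts in batch 2 and 0.513% to 0.566% elsewhere, and their summed TPM was 2797 to 3042 against 3401 to 4098. In bulk RNA such as this, fewer cells in a state that transcribes these genes and less RNA per cell cannot be told apart.

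The lower level held in every group. Set against the mean of the 3 other libraries of its own group, the batch 2 library was lower for 37 of 44 members in WT cells, 39 in FL cells, 40 in NCTAD cells and 38 in cIDR cells, with median log2 differences of −0.26, −0.37, −0.37 and −0.36. In 36 members it was lower in all 4 groups, and in 2 members, PRIM1 and GINS4, it was higher in all 4. The same signs were not counted over all genes, of which 26.1% were called lower and 27.7% higher in batch 2. These counts therefore describe the members without a matching background. Whether the size differed between WT and transfected cells was not tested.

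**Figure D3:**
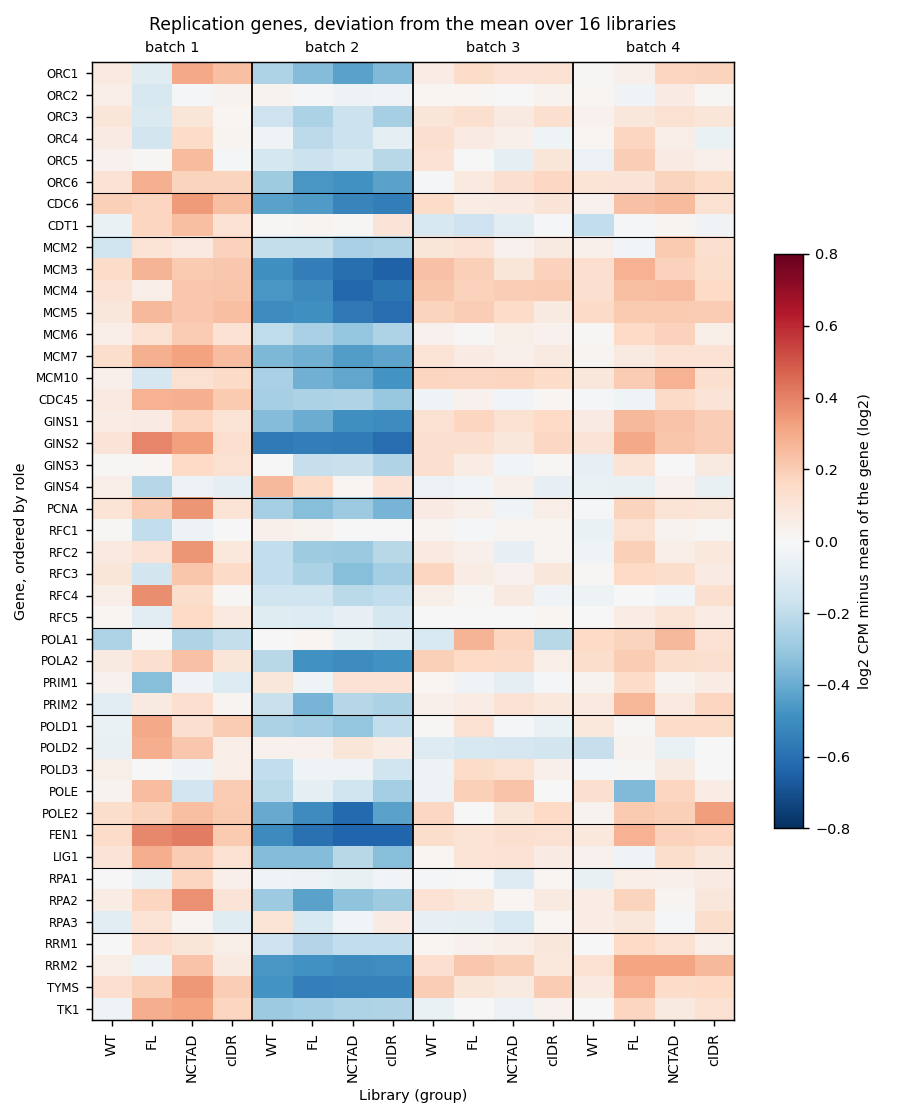
Log2 CPM of each member (rows, ordered by role) minus its mean over the 16 libraries (columns, by batch and group); blue is below and red above the mean. The 4 columns of batch 2 are blue for most rows, while those of CDT1, POLD2 and GINS4 lie above the mean, in CDT1 and POLD2 by little.

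Promoter sequences are shown for the 3 members with the largest falls in batch 2 and for RFC1, which was not called. FEN1 (ENSG00000168496.4) cuts flaps from Okazaki fragments, MCM3 (ENSG00000112118.20) is part of the helicase ring, GINS2 (ENSG00000131153.9) is part of GINS, and RFC1 (ENSG00000035928.17) is the large subunit of the clamp loader. Each run covers 200 bases before the annotated start site and the first 10 bases after it, 5′ to 3′ on the strand of the gene, from RefSeq on GRCh38.p14. Capitals mark any of 4 E2F words, TTTCCCGC, TTTGGCGC, TTTCGCGC and TTTGCCGC, on either strand. The regions are chr11:61792711-61792920 (plus strand) for FEN1, chr6:52284733-52284942 (minus) for MCM3, chr16:85688945-85689154 (minus) for GINS2 and chr4:39366353-39366562 (minus) for RFC1.
FEN1: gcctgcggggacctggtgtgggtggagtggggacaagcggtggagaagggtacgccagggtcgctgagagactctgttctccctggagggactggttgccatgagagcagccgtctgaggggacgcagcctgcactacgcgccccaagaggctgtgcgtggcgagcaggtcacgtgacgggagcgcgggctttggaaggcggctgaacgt
MCM3: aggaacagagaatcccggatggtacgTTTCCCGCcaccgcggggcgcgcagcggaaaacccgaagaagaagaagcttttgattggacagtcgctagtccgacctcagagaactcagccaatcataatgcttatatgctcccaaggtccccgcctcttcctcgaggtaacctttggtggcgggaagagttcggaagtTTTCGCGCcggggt
GINS2: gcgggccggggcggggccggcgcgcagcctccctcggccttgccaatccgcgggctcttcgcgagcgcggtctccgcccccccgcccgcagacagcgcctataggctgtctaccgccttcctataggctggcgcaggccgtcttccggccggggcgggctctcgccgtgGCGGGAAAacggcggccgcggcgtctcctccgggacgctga
RFC1: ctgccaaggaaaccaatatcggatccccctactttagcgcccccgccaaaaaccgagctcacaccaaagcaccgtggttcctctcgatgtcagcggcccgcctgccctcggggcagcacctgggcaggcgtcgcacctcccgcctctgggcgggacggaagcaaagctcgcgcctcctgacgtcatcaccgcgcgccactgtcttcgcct

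MCM3 held 2 such words, whose first bases lie at −174 and −4 from the start site, and GINS2 held 1 on the opposite strand at −31, read as GCGGGAAA. FEN1, with the largest fall, held none in its window, and neither did RFC1. Of the 44 members, 38 had an entry, each with 250 bases before the start and 50 after. A word was found in 18 of these 38 (47.4%). Among all 27305 symbols with an entry 3.99% had one. Of the members, 16 of the 31 called lower in batch 2 held a word, and so did 2 of the 7 others, CDT1 and POLA1. Whether the words went with the fall was not tested. The CCAAT box (CCAAT, both strands) was present in 60.5% of the members and 39.7% of all symbols, and the short HIF words ACGTG or GCGTG in 81.6% and 52.4%. The CHR words TTTGAA or TTCGAA, known from mitotic promoters, were present in 5.26% of the members and 19.5% of all symbols. These matches describe letters in a window; base composition was not matched between the sets, and binding was not measured.

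**Figure D4:**
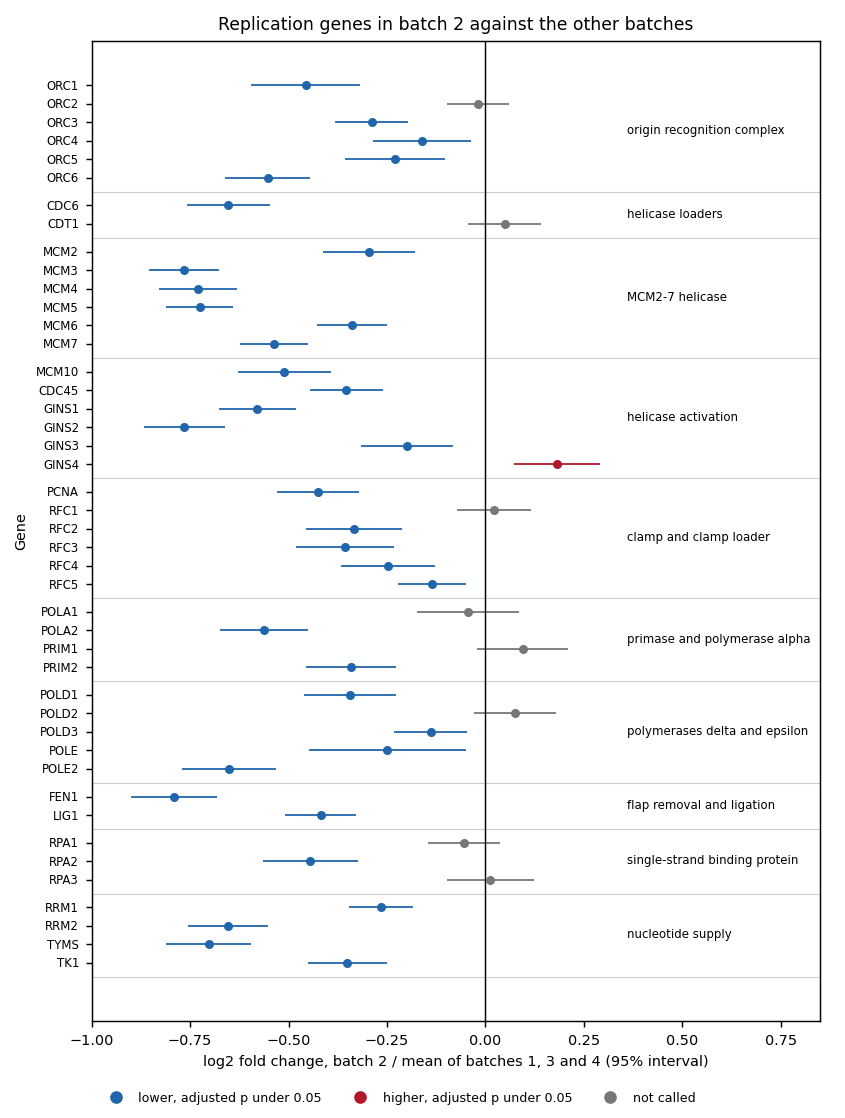
Log2 fold change of each member in batch 2 against the mean of batches 1, 3 and 4, with 95% intervals from the edgeR model; genes are grouped by role, with blue called lower, red called higher and grey not called. FEN1, MCM3 and GINS2 lie furthest to the left at −0.79, −0.77 and −0.77, and GINS4 at 0.18 is the red point.

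Of the 6 origin recognition genes, 5 were lower in batch 2 and ORC2 was not called (−0.019 ± 0.037, adjusted p = 0.686). ORC6, the smallest subunit of the complex, stood at 42.2, 37.3, 36.75 and 38.2 CPM in WT, FL, NCTAD and cIDR cells of batch 2. In the other 12 libraries it had at least 51.1, a median of 56.6 and at most 62.7 CPM. There was no overlap, and the log2 fold change was −0.55 ± 0.050 (adjusted p = 3.8e-07). ORC1 fell by 0.46, ORC3 by 0.29, ORC5 by 0.23 and ORC4 by 0.16 on the log2 scale, and only ORC4 and ORC2 overlapped between the sets of libraries. The TPM ratio of ORC6 to ORC2 was 1.33 to 1.65 in batch 2 and 1.83 to 2.98 elsewhere. The call of ORC4 was lost without the FL library of batch 2 (adjusted p = 0.109), without its NCTAD library (adjusted p = 0.128) without batch 3 (adjusted p = 0.0681) and without the WT libraries (adjusted p = 0.0702), and ORC4 and ORC5 were not called on TPM values (adjusted p = 0.524 and 0.0825).

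The 2 loaders parted. CDC6 stood at 83.4, 81.9, 78.0 and 76.5 CPM in batch 2 and at 115 to 142 CPM with a median of 125 elsewhere. That was a log2 fold change of −0.65 ± 0.049 (adjusted p = 5.61e-08) with no overlap. CDT1, which geminin holds inactive once S phase has begun, was at 74.3, 74.9, 74.4 and 79.3 CPM, inside the 64.5 to 87.1 CPM of the other libraries (0.049 ± 0.044, adjusted p = 0.366). Without batch 1 it was called higher (0.12, adjusted p = 0.0079), and likewise on TPM values (0.16, adjusted p = 0.0245). The TPM ratio of CDC6 to CDT1 was 0.929 to 1.28 in batch 2 and 1.63 to 2.09 elsewhere.

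All 6 subunits of the MCM2-7 helicase fell, each with no overlap. MCM3 had 326, 311, 301 and 292 CPM in batch 2 against 490.0 to 556 CPM with a median of 521 in the other libraries. Its log2 fold change was −0.77 ± 0.042 (adjusted p = 2.17e-09), the smallest adjusted p of the set. MCM7, the most abundant subunit by TPM, had 349, 344, 328 and 335 CPM against 455 to 559 CPM with a median of 484 (−0.54 ± 0.041, adjusted p = 5.88e-08). MCM4 fell by 0.73 and MCM5 by 0.73, whereas MCM6 fell by 0.34 and MCM2 by 0.30 on the same scale. The subunits are used in equal number in the ring, but the TPM ratio of MCM3 to MCM2 was 1.31 to 1.44 in batch 2 and 1.76 to 2.26 in the other batches. On TPM values analysed with limma the fall of MCM2 was no longer called (−0.068, adjusted p = 0.311). An antisense transcript without a gene name overlaps 22.7% of the exon bases of MCM2.

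Among the 6 genes for helicase activation, 5 were lower and GINS4 was higher. GINS2 stood at 45.5, 46.0, 45.8 and 44.3 CPM in batch 2, and at 71.9 to 88.7 CPM with a median of 74.8 elsewhere (−0.77 ± 0.048, adjusted p = 9.2e-09). CDC45, the most abundant of the group by TPM, had 60.6, 60.9, 61.7 and 59.0 CPM against 71.1 to 88.6 CPM with a median of 75.6 (−0.35 ± 0.043, adjusted p = 7.19e-06). GINS1 fell by 0.58, MCM10, which helps to activate the helicase, by 0.51, and GINS3 by 0.20. GINS4 had 27.6, 25.7, 23.4 and 25.0 CPM in batch 2, and 19.7 to 23.9 CPM with a median of 22.3 in the others, so that its NCTAD library overlapped them. Its log2 fold change was 0.18 ± 0.051 (adjusted p = 0.0076), opposite in sign to the 3 partners with which it forms a tetramer. The call was lost without the WT library of batch 2 (0.15, adjusted p = 0.0561) and without its FL library (0.15, adjusted p = 0.0554). On TPM values GINS3 was not called (adjusted p = 0.116). The TPM ratio of GINS2 to GINS4 was 1.56 to 1.86 in batch 2 and 3.06 to 5.89 elsewhere. An antisense transcript without a gene name overlaps 21.2% of the exon bases of GINS4, and the strand setting of the counting is not given in the sources used here.

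PCNA and 4 of the 5 subunits of its loader were lower. PCNA had 236, 224, 232 and 219.6 CPM in batch 2 against 278 to 362 CPM with a median of 304 in the others, with no overlap (−0.42 ± 0.049, adjusted p = 3.82e-06). RFC3 fell by 0.36, RFC2 by 0.33, RFC4 by 0.25 and RFC5 by 0.14 on the log2 scale. RFC5 was not called without batch 4 (adjusted p = 0.0522) or on TPM values (adjusted p = 0.18). RFC1, which is shared by no other loader complex, had 115 to 119 CPM in batch 2 within 101 to 126 CPM elsewhere (0.021 ± 0.044, adjusted p = 0.71).

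In primase with polymerase alpha 2 of the 4 genes were called, both lower. POLA2, the regulatory subunit, had 37.2, 31.0, 30.6 and 31.0 CPM in batch 2 against 45.0 to 51.2 CPM with a median of 47.8 elsewhere (−0.56 ± 0.052, adjusted p = 4.41e-07). PRIM2, the large primase subunit, fell by 0.34. PRIM1, the catalytic primase subunit and the most abundant of the 4 genes by TPM, had 46.3, 42.4, 46.9 and 47.1 CPM, inside the 34.2 to 48.0 CPM of the others (0.094 ± 0.054, adjusted p = 0.157). POLA1 was not called (−0.044 ± 0.060, adjusted p = 0.559). The TPM ratios of POLA2 to POLA1 and of PRIM2 to PRIM1 overlapped between batch 2 and the rest. Transcripts on the same strand overlap 35.1% of the exon bases of POLA2 and 14.9% of those of PRIM1, so the counts of both could be split or shared.

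Of the 5 genes for polymerases delta and epsilon, 4 were lower. POLE2, the second subunit of polymerase epsilon, had 18.8, 17.4, 16.1 and 18.4 CPM in batch 2 against 24.7 to 31.2 CPM with a median of 27.9, with no overlap (−0.65 ± 0.056, adjusted p = 2.18e-07). POLD1, the catalytic subunit of polymerase delta, fell by 0.34 and did not overlap. POLE, the catalytic subunit of epsilon, fell by 0.25 and POLD3 by 0.14; both overlapped. The adjusted p of POLE, 0.0356, passed 0.05 when genes with under 10 counts in any library were removed (0.0598), on TPM values (0.179), without batch 3 (0.0786), without the WT libraries (0.138), and without each of the WT, NCTAD and cIDR libraries of batch 2 (0.089, 0.0883 and 0.123), the FL library of batch 1 (0.0676) or the NCTAD library of batch 4 (0.0503). That of POLD3, 0.0129, did so without the 4 WT libraries (0.10), without the WT (0.066) or the cIDR library of batch 2 (0.0538) and on TPM values (0.194). POLD2, the most abundant of the group by TPM, had 194, 193, 202 and 197 CPM, inside the 166 to 232 CPM of the other libraries (0.074 ± 0.049, adjusted p = 0.216). It was called higher without the FL library of batch 1 (0.097, adjusted p = 0.0381), without batch 1 (0.15, adjusted p = 0.00184) and on TPM values (0.13, adjusted p = 0.0484). The TPM ratio of POLD1 to POLD2 was 0.182 to 0.218 in batch 2 and 0.230 to 0.354 elsewhere.

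Both genes that complete the lagging strand fell without overlap. FEN1 had 75.2, 70.8, 69.1 and 69.0 CPM in batch 2 against 114 to 142 CPM with a median of 119 in the other libraries. Its log2 fold change of −0.79 ± 0.051 (adjusted p = 1.16e-08) was the largest of the set. LIG1, the ligase that seals the nicks, fell by 0.42 (SE 0.042). The TPM ratio of FEN1 to LIG1 went from 2.80 to 3.58 in the other libraries to 2.14 to 2.51 in batch 2.

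In RPA, the trimer that covers single strands, a single subunit was called on counts. RPA2 had 31.7, 28.7, 30.9 and 31.7 CPM in batch 2 against 39.1 to 49.8 CPM with a median of 41.0 elsewhere (−0.44 ± 0.056, adjusted p = 1.02e-05). RPA1 (−0.054 ± 0.043, adjusted p = 0.305) and RPA3 were not called. RPA3, the most abundant of the trimer by TPM, had 50.4, 42.8, 46.0 and 48.8 CPM in batch 2 and 42.8 to 51.5 CPM elsewhere (0.012 ± 0.052, adjusted p = 0.855). The TPM ratio of RPA2 to RPA1 was 0.447 to 0.499 in batch 2 and 0.622 to 0.771 in the other batches. On TPM values RPA1 was called higher (0.18, adjusted p = 0.0246), so its direction depended on the scale.

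All 4 genes of nucleotide supply fell without overlap in CPM. TYMS, which makes thymidylate, had 92.8, 88.2, 88.6 and 88.9 CPM in batch 2 against 135.5 to 164 CPM with a median of 146 elsewhere (−0.70 ± 0.050, adjusted p = 3.58e-08). RRM2, the subunit of ribonucleotide reductase whose level follows S phase, had 198, 196, 193 and 194 CPM against 266 to 341 CPM with a median of 307 (−0.65 ± 0.047, adjusted p = 3.94e-08). RRM1, its more stable partner, fell by 0.26 and TK1 by 0.35. On TPM values the log2 fold change of RRM2 was −0.32, called with the filter on low values (limma adjusted p = 0.0283) and not called without it (adjusted p = 0.0736). On that scale RRM2 overlapped, with 164 to 188 TPM in batch 2 and 129 to 282 TPM elsewhere, and the ratio of RRM2 to RRM1 overlapped too. ENOSF1, on the opposite strand, overlaps 39.1% of the exon bases of TYMS. A transcript on the same strand overlaps 20.2% of the exon bases of RRM2, so the counts of RRM2 could be split or shared.

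By TPM ratio, the chosen pairs did not overlap between batch 2 and the rest in the origin recognition complex, MCM2-7, GINS, polymerase delta and RPA, nor for CDC6 with CDT1 or FEN1 with LIG1. In the clamp loader, primase with polymerase alpha, polymerase epsilon and ribonucleotide reductase they overlapped. The pairs were chosen after the values had been seen, so the ratios describe these libraries and carry no test. Across the 44 members, the 8 that were not called in batch 2 were ORC2, CDT1, RFC1, POLA1, PRIM1, POLD2, RPA1 and RPA3. Nearest to the threshold among the called members lay POLE (adjusted p = 0.0356) and ORC4 (adjusted p = 0.0285), and nearest among the others PRIM1 (adjusted p = 0.157) and POLD2 (adjusted p = 0.216).

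The other batches were set against their 3 others in the same way. These comparisons share libraries with the one above and all include batch 2 on the other side. In batch 1, 24 members were higher and 1 was lower, beside 14.9% and 9.77% of all genes. In batch 3, 11 were higher and 1 was lower, beside 7.66% and 8.31% of all genes, and in batch 4, 16 were higher and none lower, beside 6.57% and 6.87%. These counts depended on the scale and on single libraries. On TPM values 5 to 7 members were called in batch 1, 1 to 3 in batch 3 and, without a filter, 8 in batch 4. Batch 1 had 16 called without its NCTAD library, and batch 3 had 6 without its FL library and 4 without its cIDR library. Shares of all genes in these TPM fits and fits with a library left out are not given here. Whether the members or all genes lost calls therefore cannot be read from these counts. With batch 2 left out, 5 members were called for batch 1 against batches 3 and 4 (13.3% of all genes), 0 for batch 3 against 1 and 4 (0.225%) and 0 for batch 4 against 1 and 3 (0.00524%), with 10, 5 and 2 members at an unadjusted p under 0.05 (29.1%, 13.2% and 7.97% of all genes). The 5 members of batch 1 were named after their values were seen. CDT1 (0.19 ± 0.044, adjusted p = 0.019), MCM7 (0.17 ± 0.040, adjusted p = 0.0227), CDC45 (0.18 ± 0.048, adjusted p = 0.033) and POLD2 (0.21 ± 0.051, adjusted p = 0.0233) were higher there, and POLA1 was lower (−0.28 ± 0.074, adjusted p = 0.033). CDT1, POLD2 and POLA1 are among the 8 members not called in batch 2.

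Other genes around the fork were counted for batch 2 from lists chosen with earlier results of these data known. Of 37 replication companions, which assist the machinery at origins, forks and new chromatin or make nucleotides, 31 were lower (83.8%, against 26.1% of all genes), 2 were higher and 4 were not called, with a median log2 fold change of −0.36. The smallest adjusted p belonged to UNG, which removes uracil from new DNA (−0.82 ± 0.050), TIMELESS, a fork protection protein (−0.67 ± 0.041), and UHRF1, which guides maintenance methylation (−0.69 ± 0.048). The 2 that rose were POLD4, the small subunit of polymerase delta (0.40 ± 0.12), and CHTF8, a part of the related clamp loader (0.37 ± 0.073).

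Of 16 E2F and RB genes, 11 were lower (68.8%, against 26.1% of all genes) and 4 higher (25%, near the 27.7% of all genes), with a median of −0.21. E2F1 fell by 0.50, its dimer partner TFDP1 by 0.45 and the repressor E2F8 by 0.72, while E2F2, E2F5, TFDP2 and RBL2 rose by 0.23 to 0.33. Of 14 tested genes for G1/S cyclins, kinases and inhibitors, 8 were lower (57.1%) and 4 higher (28.6%, again near the share of all genes), with a median of −0.26. CDKN1A, the inhibitor p21, stood at 62.4 to 83.9 CPM in batch 2 and at 20.8 to 32.0 CPM elsewhere (1.54 ± 0.073, adjusted p = 4.37e-10). CCNE2, a cyclin that drives entry into S phase, had 11.2 to 12.3 CPM against 16.5 to 29.6 CPM (−1.05 ± 0.070), and CDC25A, the phosphatase that activates CDK2, fell by 0.75. CDKN1B, the inhibitor p27, fell by 0.23, and CDK6, CDKN1C and CDKN2D were the other genes that rose.

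Of 25 mitotic genes, 15 were lower (60%, against 26.1% of all genes) and 3 higher (12%, against 27.7%), with a median of −0.16 beside −0.34 for the 44 replication genes; the difference between the lists was not tested. FOXM1, a transcription factor of the G2 and mitotic program, fell by 0.45, CDC20, an activator of the anaphase-promoting complex, by 0.51 and BUB1B, a spindle checkpoint kinase, by 0.34, a call that was lost on TPM values (−0.16, adjusted p = 0.0996). TOP2A, CDC25C and CENPE rose by 0.14 to 0.38. MYCN was not called (−0.017 ± 0.038, adjusted p = 0.728), but was called higher without batch 1 (0.089, adjusted p = 0.0282).

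Hypoxia-responsive genes moved the other way in the same libraries, although the labels give 21% oxygen for every sample. Of 15 such genes 13 were higher (86.7%, against 27.7% of all genes) and 0 lower, with a median of 0.92. PFKFB4, a regulator of glycolysis, stood at 27.7 to 49.5 CPM in batch 2 and 5.64 to 10.5 CPM elsewhere (2.24 ± 0.050, adjusted p = 2.39e-13). PDK1, which limits pyruvate entry into mitochondria, rose by 2.81 ± 0.085 and BNIP3, a mitophagy receptor, by 1.73 ± 0.058, while LDHA and SLC2A1 were not called. Their part in the lower replication genes was not tested. In the construct comparisons 1, 7 and 9 of these 15 genes were called higher in FL, NCTAD and cIDR against WT (0.0717%, 0.42% and 0.456% of all genes), where no replication gene was called. EPAS1 itself was not called in batch 2 (−0.45 ± 0.26, adjusted p = 0.165), and its value depended on single libraries of that batch. It was −0.96 and called lower without the WT library (adjusted p = 0.000169), −0.18 without the NCTAD library (adjusted p = 0.62) and −0.20 without the cIDR library (adjusted p = 0.59). Without the 4 WT libraries it was −0.95 and called lower (edgeR adjusted p = 0.000601). The direction differed between groups. WT cells had 28.1 CPM in batch 2 against 13.0 to 17.3 CPM in the other batches. NCTAD cells had 1320 against 2203 to 4228 CPM, and cIDR cells 2189 against 4078 to 5852 CPM. FL cells, at 2001 CPM, lay inside their 1691 to 3580 CPM.

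Markers of other cell types were counted in the same libraries, where 27.7% of all genes were called higher and 26.1% lower. Of 5 tested fibroblast markers 4 were higher in batch 2 (LUM, PDGFRB, DCN and COL1A1), with a summed level of 106.5 to 111 TPM against 45.6 to 60.5 TPM over the 6 markers. COL1A1 reached at most 1.95 TPM. COL3A1, the tested marker that was not called higher, had a mean of 0.37 CPM in batch 2 and 0.54 CPM elsewhere, with overlapping ranges. COL1A2 was listed at 0 in 13 of 16 libraries. Of 4 tested epithelial markers KRT8 and KRT18 were higher, at up to 1.72 TPM, and the summed level was 11.2 to 11.6 TPM in batch 2 within 8.99 to 14.5 TPM elsewhere, with CDH1 listed at 0 in 11 libraries. Leukocyte markers summed to under 1 TPM in every library, with PTPRC listed at 0 in 12. The part of these markers in the replication result was not tested. Of the 11 neuroblastoma markers 5 were higher (45.5%) and 4 lower (36.4%) in batch 2, with GATA3 falling by 0.80 and TH rising by 2.15.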

How the data were processed

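Per the labels, RNA (250 ng a sample) was poly(A)-selected and made into stranded libraries, amplified for 13 cycles of PCR. Estimated counts, as deposited, are Salmon output per gene and carry no scaling for depth or length; the deposited TPM values came from the same run. The submitters' processing notes name fastp, STAR, Salmon, featureCounts and GRCh38; versions, the annotation and the strand setting of the counting are not given in the sources used here. The members and all gene lists were chosen with earlier results of these data known.

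Counts were rounded, since 15.5% of them had a fractional part. Genes were kept with filterByExpr by group, and edgeR 4.0.16 (R 4.3.3) was used for a quasi-likelihood test after TMM normalization, over all 16 libraries with group and batch as terms. Calls were made at a Benjamini-Hochberg adjusted p under 0.05 over all 19530 genes. CPM used TMM-scaled totals, and log2 CPM a prior count of 2. A count of 0 would allow up to 0.0535 to 0.0778 CPM (3 counts, counting error only). The batch pairs the libraries by the labels; deviations from group means correlated at a mean r of 0.308 (0.0674 to 0.712) within a batch and −0.0945 across batches. No replicates were copies of each other (chi-square per degree of freedom at least 6.88). Nothing in the labels says that replicates came from separate cultures, so p-values measure the spread between these libraries, which may be technical. The value in each batch 2 library and the range over the other 12 are given for the member of each role with the smallest adjusted p in batch 2 and the one with the highest mean TPM; other lists name up to 3 genes by adjusted p, with EPAS1, MYCN, E2F1, CDKN1A and CDKN1B. Alternatives were no batch term, median-of-ratios factors, DESeq2 1.42.0, other filters, limma 3.58.1 on log2(TPM + 1) and log2(TPM + 0.1), and libraries or batches left out. The fits were tested on simulated data. Overlapping genes came from GENCODE 29 and promoters from RefSeq. Figures used matplotlib 3.10.9.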

Additional observations from a re-analysis of the deposited data

Results flagged for a closer look

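Sets of 4 values were examined for the 16 genes given in full and for the mean over the members, each in the 4 groups, and for the mean within-batch difference in the 6 comparisons between groups, 74 in all. In 24 of them a single value lay far from the other 3, and in all 24 it was the batch 2 library, the lowest of its group. Chance marks about 1 in 20 independent sets, but these are not independent: the groups share the batch, and 10 of the 16 genes were chosen for their small adjusted p in batch 2. The count therefore restates that choice and is no further support for it. The mean log2 CPM over the 44 members was marked in WT (6.098), FL (6.041) and cIDR (6.033). MCM3 was marked in all 4 groups, at 8.348 in WT cells, 8.283 in FL cells, 8.235 in NCTAD cells and 8.19 in cIDR cells. POLA2 was marked in FL (4.957), NCTAD (4.937) and cIDR (4.956), and RPA2 in WT (4.987), FL (4.844) and cIDR (4.988). GINS2 was marked in WT (5.511) and cIDR (5.472), FEN1 in WT (6.234) and cIDR (6.109), RRM2 in WT (7.629) and NCTAD (7.591), and ORC6 in NCTAD (5.201) and cIDR (5.256). PCNA (7.779) and TYMS (6.475) were marked in cIDR, and POLE2 (4.012) in NCTAD.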

How the results depend on the processing

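With group as the only term (no replicate block) 0 members were called in all 6 group comparisons, as with the block; over all genes the counts for FL, NCTAD and cIDR against WT went from 20, 89 and 95 with the block to 2, 5 and 2 without it. Every other alternative also called 0 members between groups, each library and each batch left out included. Pairing by batch thus changed no call of a member. Over all genes DESeq2 called 58, 168 and 156 against WT. The TPM scale moved the members' median for NCTAD and cIDR against WT to −0.058 and −0.060, beside −0.065 and −0.062 over all genes, and turned LIG1 in NCTAD against WT from 0.11 to −0.021 or −0.022.

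In batch 2 the members called lower were 35 with batch as the only term, median-of-ratios factors, DESeq2 or no filter, 34 with at least 10 counts in every library, and 28, 28 and 27 with limma on log2(TPM + 1), log2(TPM + 0.1) and log2(TPM + 1) without a filter, with 4, 4 and 3 higher. Leaving out a library or a comparator batch gave 33 to 38 called and 33 to 35 lower. Shares of all genes called lower in these alternative fits are not given here, so the member counts have no background outside the main fit. On TPM values ORC4, ORC5, MCM2, GINS3, RFC5, POLD3, POLE and BUB1B were no longer called, nor was RRM2 without the filter (−0.32, adjusted p = 0.0736), while CDT1 (0.16) was called higher in all 3 fits and POLD2 (0.13) with the filter, and the share of higher calls over all genes was 59.8%, or 67.6% unfiltered, against 51.5%. Directions that turned were ORC2 at 0.0078 (10 counts) and 0.13 (TPM), MYCN at 0.010 (10 counts), 0.0022 (without WT) and 0.089 (without batch 1, where it was called), RPA1 at 0.18 (TPM), RPA3 at −0.027 (without batch 3), −0.020 (without WT) and in 5 of 16 left-out libraries (range −0.034 to 0.063), CDT1 at −0.0035 (without batch 3), POLA1 at 0.043 (without batch 4) and RFC1 at −0.00070 (without batch 1).

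Batches 1, 3 and 4 depended on the rest. Members called in batch 1 were 25 (24 higher), and 7 (6), 7 (6) and 5 (5) in the 3 TPM fits. Batch 3 had 12 (11 higher), and 3 (3), 2 (2) and 1 (1); batch 4 had 16, and 8 (8) on unfiltered TPM. Single libraries left out gave 16 to 25 called (16 to 24 higher) in batch 1, 4 to 17 (4 to 15) in batch 3 and 11 to 20 in batch 4, lowest without the NCTAD library of batch 1 and without the cIDR libraries of batches 3 and 4. Without batch 2 there were 5 (4 higher), 0 and 0, beside 13.3%, 0.225% and 0.00524% of all genes. Without batch 1 there were 26 (25) in batch 3 and 29 in batch 4, and without batch 4 there were 23 (21) in batch 3. For the TPM fits and the other left-out fits, shares of all genes are not given here, so those member counts have no background. Of all calls in batches 1 and 3, 60.5% and 48% were higher on counts and 28.9% and 29.1% on log2(TPM + 1). The cause was not tested. Each batch holds 1 library per group, and depth limited no member.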
